A study of Epimedium pubescens with 12 samples.

Results

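The comparison described here is the interaction of phosphorus supply and time in leaves of Epimedium pubescens, a perennial medicinal herb of the Berberidaceae whose leaves hold prenylated flavonol glycosides such as icariin. For each gene, the log2 ratio of -P to +P at 30 d was subtracted from the same ratio at 90 d. A positive value means that the ratio was higher at 90 d, and a negative value that it was lower there. All genes of the count table that had enough reads were taken, 24307 of 53813, and they were grouped into functional classes by the name of the closest Swiss-Prot protein and by the transcription factor family in the annotation.

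RNA-seq was done on 12 leaf libraries, with 3 replicates (A, B and C) in each of 4 groups. The 30d -P and 90d -P groups are leaves of seedlings that received an adjusted Hoagland solution with 0 mmol/L phosphate for 30 d and 90 d, and the 30d +P and 90d +P groups received 1 mmol/L for the same times. All plants were 1 year old when collected from cultivation, grew in sand culture in a growth chamber and had first been kept on a dilute nutrient solution. The -P solution also held more potassium nitrate and potassium sulfate and no sodium nitrate, so phosphate was not the only salt that differed between the treatments. The study's methods give 12 seedlings per replication, but not how many of them gave leaves to a library, nor whether the same plants were sampled at both times. The p-values therefore measure the spread between these libraries.

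Phosphate is taken up and moved in plants by PHT1 transporters and by PHO1 exporters, and SPX domain proteins bind inositol pyrophosphates as a gauge of the phosphate in the cell. When phosphate runs short, plants are known to induce these genes together with purple acid phosphatases, which release phosphate from organic esters, and enzymes that put galactolipids and sulfolipids in place of phospholipids. Leaves low in phosphate often also accumulate flavonoids and lose photosynthetic capacity. The interaction asks whether such differences between -P and +P were of another size or direction after 90 d than after 30 d.

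The libraries held 14756971 to 18153463 counts in total. Chi-square per gene between replicates was 26.4 to 144, where counting error alone gives about 1, and Spearman's rho between replicates went down to 0.870 (90d +P replicates B and C). Among the 17382 genes with a mean of at least 1 CPM in every group (CPM, the count scaled to library size by edgeR with TMM factors), the median standard error of the log2 interaction was 0.49, with quartiles of 0.34 and 0.78. Markers of leaf mesophyll (chlorophyll a-b binding proteins and the Rubisco small subunit, 48 of 57 genes tested) summed to 23237 to 80766 CPM in every library, and none of the 3 casparian strip genes, which mark roots, had enough reads to be tested. The xylem list (secondary wall cellulose synthases and laccases, 53 of 85 genes tested) summed to 1208 to 5020 CPM at 30 d and to 93.3 to 424 CPM at 90 d. In bulk leaves, a lower number of cells of a type and less RNA per cell cannot be told apart.

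edgeR's quasi-likelihood test called no gene in the interaction. With calls set at a Benjamini-Hochberg adjusted p up to 0.05 and a log2 interaction of 1 or more in size, the share called was 0% in the higher and 0% in the lower direction, and the smallest adjusted p was 0.999958. Without adjustment, 723 genes (2.97%) had p under 0.05. Where no gene has an interaction, a share of about 0.05 would be expected. The genes described below by unadjusted p are therefore not shown to have an interaction. Together with the log2 minimum, 316 genes were on the higher side (1.3% of those tested) and 297 on the lower side (1.22%). These 613 genes (2.52% of those tested) are called nominal in what follows. The p of a single gene is edgeR's unadjusted p, since every adjusted p was 0.999958 or above. Of the other tools, limma-voom with quality weights gave 0 calls in each direction (smallest adjusted p 0.945), edgeR's likelihood ratio test gave 1 higher and 5 lower, and DESeq2 on all 12 libraries gave 11 higher (0.0291% of 37766) and 23 lower (0.0609%).

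Over all 24307 genes, the log2 ratios of -P to +P at 30 d and at 90 d had a correlation of 0.444, given as a description across genes, which share libraries and are not replicates. It was 0.363 for the 19634 genes of the reference annotation, 0.499 for the 4673 genes from the authors' transcript assembly and 0.311 for the 17382 genes with a mean of at least 1 CPM in every group. The 2 ratios come from different libraries. Their SD over these 17382 genes was 0.58 at 30 d and 0.53 at 90 d, and the SD of the interaction was 0.66.

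**Figure D1:**
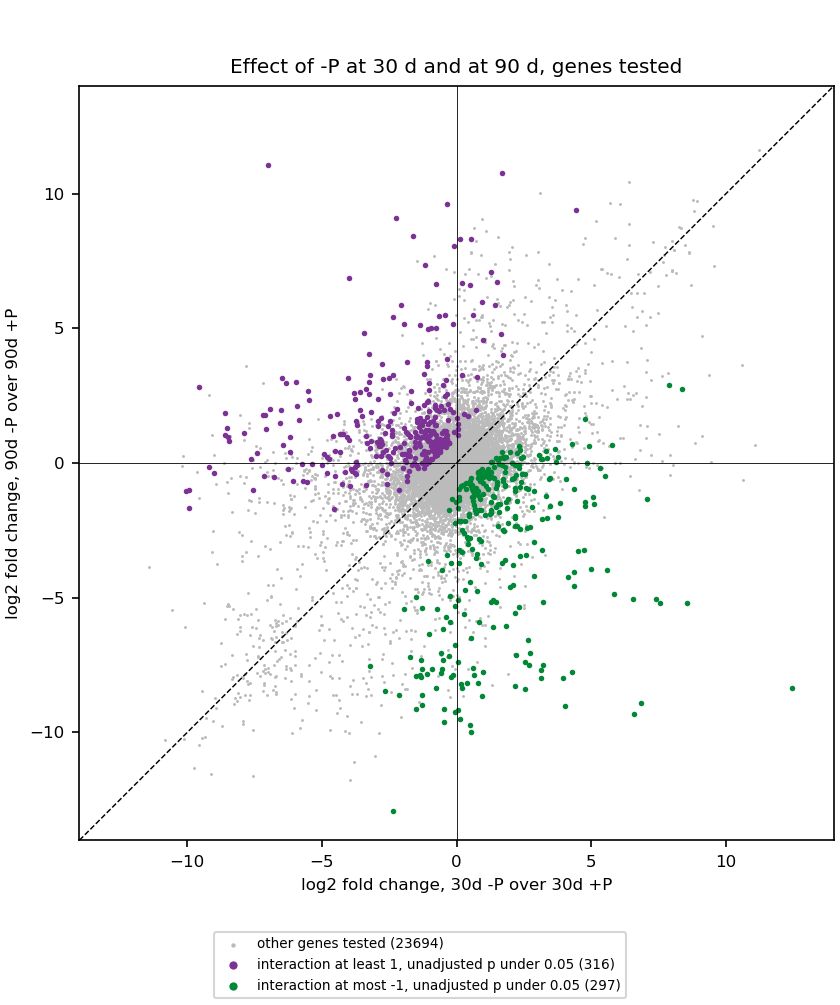
Log2 fold change of -P over +P at 90 d (vertical axis) against that at 30 d (horizontal axis), 1 point per gene for the 24307 genes tested, with the dashed line at equal effects. The 316 genes in purple lie above and the 297 in green below the line, and 471 of these 613 had effects of opposite sign at the 2 times, as had 9563 of all genes tested. Selection by a large difference between the 2 effects itself favours opposite signs.

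For each nominal gene, the group farthest from the median of the other 3 was taken. Whether that group lay above or below follows from the sign of the interaction, by which the genes were selected. Among the 316 on the higher side, this group was 30d -P, below them, in 120 genes, 90d +P, below them, in 75, 30d +P, above them, in 66, and 90d -P, above them, in 55. Among the 297 on the lower side it was 90d -P, below the others, in 103 genes, 30d -P, above them, in 97, 90d +P, above them, in 55, and 30d +P, below them, in 42. Of all 613, 30d -P was this group in 35.4% and 90d -P in 25.8%, where the shares over all genes tested were 32.0% and 21.4%. The ratio of -P to +P had p under 0.05 at 30 d alone in 251 of the 613, at 90 d alone in 215 and at both times with opposite signs in 12. The nominal genes were low in expression, with a median of 2.91 CPM beside 7.99 CPM for all genes tested. Assembled genes made up 30.7% of them beside 19.2% of all genes tested, and 124 had 0 counts in all 3 libraries of a group. Transcription factors made up 5.06% of them beside 5.55% of all.

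Among the phosphate genes, most members of the PHO1 and SPX classes and the one PHT1 gene tested had positive values. edgeR's quasi-likelihood test called no gene of these classes. Of 12 PHO1 genes tested, 8 had a value above 0 and 3 were nominal, all on the higher side, beside the 1.3% of all genes. The median log2 interaction of the 12 was 1.05, where that of all genes was -0.002, and their median log2 ratio of -P to +P was -0.61 at 30 d and 0.47 at 90 d. Over fits that left out 1 library each, the median was lowest at 0.42 (without 90d -P replicate B) and highest at 1.69 (without 90d +P replicate A). Of these genes, 9 lie on chromosome 3, and how the counting shared reads between such similar copies is not stated, so single values are uncertain.

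PHO1 proteins export phosphate from cells into the xylem, and the member with the smallest p was annotated as PHO1 homolog 3 (Ebr03G045780, chromosome 3, 371424195 to 371432342). It had 4.66, 5.49 and 2.17 CPM in 30d -P, 3.16, 5.47 and 9.55 in 30d +P, 13.2, 11.9 and 8.76 in 90d -P and 3.21, 2.74 and 1.73 in 90d +P. At 90 d all libraries of -P lay above those of +P, while at 30 d the groups overlapped. The log2 ratio of -P to +P was -0.56 at 30 d and 2.14 at 90 d, and the log2 interaction was 2.70 (SE 0.67, unadjusted p = 0.00224), with a leave-one-out range of 2.19 to 3.01. A further gene annotated as PHO1 homolog 3 (Ebr03G045260, chromosome 3, 366678369 to 366746457) had 9.26, 7.39 and 3.63 CPM in 30d -P, 15, 13.7 and 16 in 30d +P, 23.2, 25.5 and 12.8 in 90d -P and 17.1, 10.9 and 4.64 in 90d +P. Here the groups were apart at 30 d, with -P below, and overlapped at 90 d, and the log2 interaction was 2.06 (SE 0.67, unadjusted p = 0.0115). A PHO1 homolog 5 gene lies close to the first one (Ebr03G045770, chromosome 3, 371390145 to 371396481) and had 6.03, 3.99 and 2.81 CPM in 30d -P, 8.57, 7.35 and 9.35 in 30d +P, 15.4, 18.4 and 5.49 in 90d -P and 11.6, 6.77 and 4.0 in 90d +P. Its log2 interaction was 1.79 (SE 0.71, unadjusted p = 0.0294), and -P lay below +P at 30 d without overlap. The PHO1 homolog 3 gene Ebr03G045300 had 126 to 252 CPM at 30 d and 89 to 235 CPM at 90 d, and its log2 interaction was -0.08 (SE 0.42, unadjusted p = 0.853).

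PHT1 transporters take phosphate up across the plasma membrane. Of 14 annotated genes only PHT1-4 (Ebr02G025260, chromosome 2, 217843112 to 217845493) had enough reads to be tested. It had 240.1, 340.0 and 325 CPM in 30d -P, 339, 277 and 284 in 30d +P, 359, 1406 and 879 in 90d -P and 303, 98.2 and 420.2 in 90d +P. The 6 libraries at 30 d spanned 240.1 to 340.0 CPM, while at 90 d replicates B and C of -P were the highest and replicate B of +P the lowest, and the groups overlapped. The log2 ratio of -P to +P was 0.01 at 30 d and 1.69 at 90 d, and the log2 interaction was 1.68 (SE 0.75, unadjusted p = 0.0488). The primers that the study lists for RT-qPCR of PHT1-4, and of the flavonoid genes EpF3'H1 and EpF3H described further on, are given 5′ to 3′. The study lists them under the IDs of these 3 genes. Their place in the transcripts was not checked, since no sequence of the genes was at hand.
PHT1-4 forward: ctggatgagtcaagaaggaa
PHT1-4 reverse: acaaggctacgatgaagag
EpF3'H1 forward: tctcttggttcatcatagcc
EpF3'H1 reverse: aacgaactcaaggttggt
EpF3H forward: ctctccttcttaatcaccttct
EpF3H reverse: tcaactgaatcggctcca

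The 6 SPX genes tested had a median log2 ratio of -P to +P of -0.08 at 30 d and 0.93 at 90 d. Of the 6, 1 was nominal (16.7%, beside 2.52% of all genes tested). Their median log2 interaction was 1.01, with 4 above 0. Without 90d -P replicate B this median was 0.08. The nominal member was annotated as SPXM3, a vacuolar membrane protein with an SPX domain that in Arabidopsis belongs to the vacuolar phosphate transporters (Ebr02G027230, chromosome 2, 237439801 to 237490457). It had 29.1, 23.9 and 33.5 CPM in 30d -P, 37.4, 10.7 and 24 in 30d +P, 24.3, 42.7 and 43 in 90d -P and 11.4, 5.48 and 14.5 in 90d +P. All libraries of 90d -P were above all of 90d +P, and the groups overlapped at 30 d. Its log2 interaction was 1.55 (SE 0.65, unadjusted p = 0.0371). SPX1 (Ebr05G012830), a nuclear inhibitor of the phosphate starvation response in Arabidopsis, had 12.2, 53.5 and 119 CPM in 30d -P, 64.3, 22.3 and 17.7 in 30d +P, 33.4, 259 and 52.9 in 90d -P and 42, 9.29 and 23.6 in 90d +P. Replicate B of 90d -P stood far above the others, and the log2 interaction was 1.38 (SE 1.35, unadjusted p = 0.33).

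Purple acid phosphatases and lipid remodelling genes had no nominal member. Over the 31 phosphatases tested the median log2 interaction was 0.22, which was 0.02 without 90d -P replicate B, 0.09 without 30d +P replicate A, 0.50 without 90d +P replicate A and 0.04 on log2(FPKM + 1). Over the 37 lipid genes it was 0.06, and leaving out 1 library gave -0.15 to 0.26. Among the phosphatases, PAP2 (Ebr04G074430, chromosome 4, 572312983 to 572315529) had the smallest p. It had 31.6, 35.6 and 21.7 CPM in 30d -P, 35.9, 38.6 and 47.8 in 30d +P, 34.5, 33 and 39.4 in 90d -P and 30.9, 28.3 and 23.5 in 90d +P. The libraries of -P were below those of +P at 30 d and above them at 90 d, without overlap at either time, and the log2 interaction was 0.83 (SE 0.29, unadjusted p = 0.0169). Among the lipid genes, the sulfolipid synthase SQD2 (Ebr03G035750, chromosome 3, 286891365 to 286941304) had 139.8, 81.7 and 90.5 CPM in 30d -P, 83.2, 105 and 114 in 30d +P, 75.7, 110.0 and 53.5 in 90d -P and 46.4, 37.1 and 47.2 in 90d +P. Its libraries overlapped at 30 d and -P lay above +P at 90 d, with a log2 interaction of 0.82 (SE 0.40, unadjusted p = 0.0665). None of the 17 ribonuclease and nuclease genes tested was nominal.

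**Figure D2:**
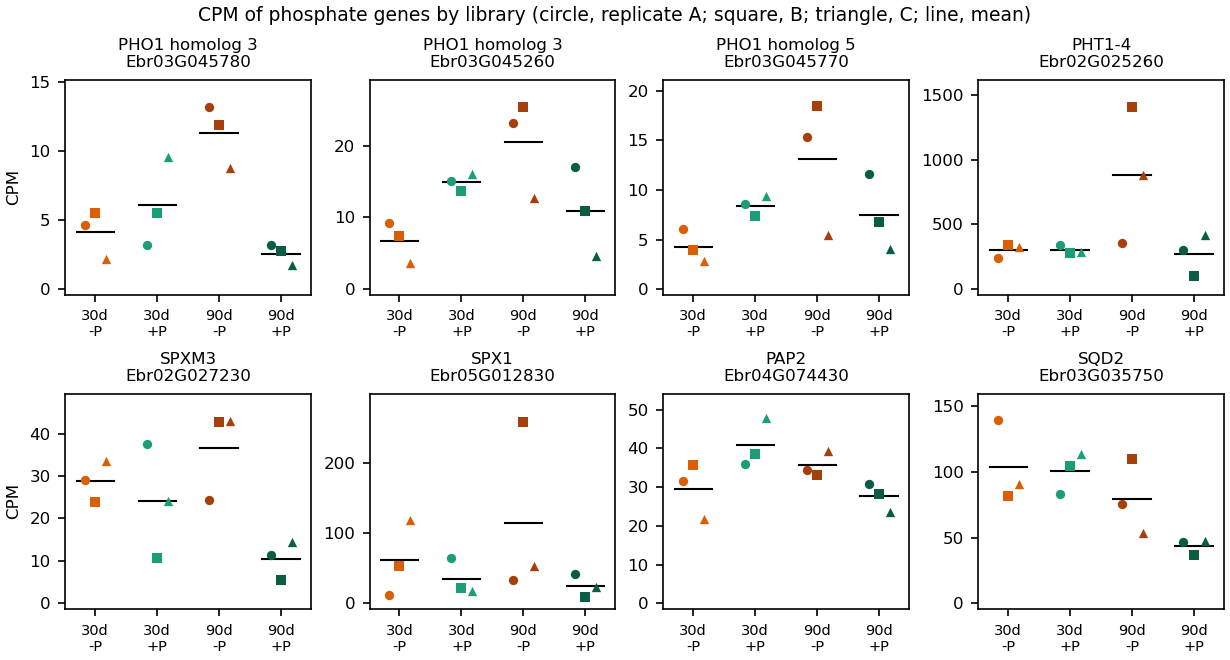
CPM of 8 phosphate and lipid genes in the 12 libraries, by group on the horizontal axis, with 1 symbol per replicate letter and a line at the group mean. The 8 genes were chosen with earlier results of these data known, and in all 8 panels the mean of 90d -P is above that of 90d +P. Not every member of their classes was higher in -P at 90 d. At edgeR's unadjusted p under 0.05 and a log2 ratio of 1 or more in size, 0 phosphatases were higher and 2 lower in -P at 90 d. Of the lipid genes, 1 was higher and 2 were lower. Of the PHO1, SPX and PHT1 genes tested, 1, 2 and 1 were higher and 0 were lower. The median log2 ratio at 90 d was 0.47 for PHO1, 0.93 for SPX, 0.21 for phosphatases and 0.22 for lipid genes. The PHT1-4 libraries span 240.1 to 340.0 CPM at 30 d and 98.2 to 1406 CPM at 90 d.

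The photosystem and light-harvesting class leaned the same way. Of 99 genes tested, 78 had a log2 interaction above 0 and 21 below, the median was 0.45, and the median log2 ratio of -P to +P was -0.18 at 30 d and 0.28 at 90 d. Leaving out 1 library gave medians of 0.14 (without 30d +P replicate B) to 0.64 (without 90d +P replicate A). In the median deviation of the class from its mean over the 12 libraries, on a log2 scale, 90d +P replicate B was the lowest at -0.98 and 30d +P replicate B the highest at 0.74. Without 90d +P replicate B the median interaction was 0.21. Of the 99 genes, 3 were nominal, all on the higher side. This was 3.03%, near the 2.52% of all genes tested. The leaf mesophyll list, which shares genes with this class, had a median of 0.48.

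Chlorophyll a-b binding proteins hold the antenna pigments, and all 3 nominal genes code for them. Ebr06G056750 (closest entry CB23, chromosome 6) had 1846, 2209 and 3174 CPM in 30d -P, 2472, 4206 and 2621 in 30d +P, 3084, 1555 and 2161 in 90d -P and 1162, 1248 and 1556 in 90d +P. At 90 d replicates A and C of -P were the highest, replicate B of -P was about level with replicate C of +P, and the log2 interaction was 1.14 (SE 0.46, unadjusted p = 0.0319). Ebr04G064290 (CB7) had 17.1, 8.69 and 9.69 CPM in 30d -P, 25.8, 29.4 and 24.9 in 30d +P, 21.5, 14.6 and 11.5 in 90d -P and 13.1, 17.6 and 18.5 in 90d +P, with -P below +P at 30 d and overlap at 90 d. Its log2 interaction was 1.13 (SE 0.43, unadjusted p = 0.0245). The smallest p of the class belonged to Ebr02G017310 (CB24), which had at most 2.70 CPM in any library. Among abundant subunits outside the nominal genes, PsbO (Ebr01G021320), which stabilises the manganese cluster of photosystem II, had 6105, 6076 and 8236 CPM in 30d -P, 9626, 10110.2 and 7476 in 30d +P, 7932, 5949 and 8944 in 90d -P and 8316, 4190.0 and 6978 in 90d +P. Its groups overlapped at both times and the log2 interaction was 0.64 (SE 0.42, unadjusted p = 0.156). Ebr06G056750, Ebr04G064290 and PsbO were chosen after their values were seen.

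The 24 genes of chlorophyll synthesis and breakdown had a median log2 interaction of 0.33. It was 0.09 without 90d +P replicate B and 0.56 without 90d +P replicate A. Nominal were 1 gene on the higher and 1 on the lower side (8.33%, beside 2.52% of all genes tested). The lower one was annotated as PTC52 (Ebr06G018930, chromosome 6, 144245089 to 144268545), named after a protochlorophyllide-dependent translocon component of the chloroplast envelope. It had 5.67, 2.68 and 1.79 CPM in 30d -P, 11.8, 7.8 and 4.94 in 30d +P, 0.182, 0.0609 and 0.432 in 90d -P and 13.3, 9.13 and 6.43 in 90d +P. All libraries of 90d -P lay below all the others. The log2 ratio was -1.28 at 30 d and -5.37 at 90 d, so that both were negative, and the log2 interaction was -4.10 (SE 0.91, unadjusted p = 0.00102). DESeq2 on all 12 libraries called this gene, with an adjusted p of 0.0117.

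The flavonoid pathway enzymes had values of the opposite sign, and the sign of their median turned without 1 library. Of 72 genes tested, 25 had a log2 interaction above 0 and 47 below, and the median was -0.67. Nominal genes were 1 on the higher and 3 on the lower side (5.56%, beside 2.52% of all genes tested). The median log2 ratio of -P to +P was 0.48 at 30 d and -0.22 at 90 d. Without 90d +P replicate C the median interaction was 0.50, and leaving out any other library gave -1.14 to -0.32. The median deviation of the class from its mean was 1.19 in 90d +P replicate C, where the other 11 libraries lay between -0.62 and 0.35. On log2(FPKM + 1) the median was -0.20, and in limma-voom, which weights each library by its quality, -0.18.

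Chalcone synthase makes the first compound of the flavonoid pathway from coumaroyl-CoA. The gene with the smallest p of the class, closest to the grapevine entry CHSY (Ebr03G073780, chromosome 3, 609507616 to 609509065) kept its sign without each library. It had 4.31, 4.84 and 5.29 CPM in 30d -P, 1.05, 1.35 and 1.74 in 30d +P, 43.8, 107 and 101 in 90d -P and 74.6, 81.6 and 123 in 90d +P. All libraries of 30d -P were above all of 30d +P, at 90 d the groups overlapped, and all libraries at 90 d were above those at 30 d. Its log2 ratio was 1.80 at 30 d and -0.14 at 90 d, and its log2 interaction -1.94 (SE 0.49, unadjusted p = 0.00237) had a leave-one-out range of -2.16 to -1.63. The values of EpCHS1 (Ebr01G026640) were 2591, 2594 and 2606 CPM in 30d -P, 1789, 2092 and 1525 in 30d +P, 3029, 1343 and 1432 in 90d -P and 1852, 900.2 and 2822 in 90d +P. At 30 d -P was above +P without overlap, at 90 d the replicates of each treatment spread widely, and the log2 interaction was -0.47 (SE 0.58, unadjusted p = 0.44). EpCHS2 (Ebr05G049130) and EpCHS5 (Ebr03G073940) had log2 interactions of -0.78 and -2.51 with replicate B of both treatments at 90 d far below the others, and with the highest value of all 12 libraries in 90d +P replicate C.

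The hydroxylases and the flavonol synthase also depended on that library. EpF3H (Ebr04G062950, chromosome 4, 491866998 to 491869608), which hydroxylates flavanones, had 1102, 1165 and 888 CPM in 30d -P, 417, 682 and 450.4 in 30d +P, 1060.3, 167 and 948 in 90d -P and 384, 32.4 and 2068 in 90d +P. EpF3'H1 (Ebr03G047030, chromosome 3, 380215144 to 380217595), which adds a hydroxyl group to the B ring, had 92.6, 72.4 and 70.8 CPM in 30d -P, 19, 11.5 and 15.8 in 30d +P, 43.2, 27.3 and 69.8 in 90d -P and 6.97, 3.65 and 151 in 90d +P. In both genes -P was above +P at 30 d without overlap, and at 90 d replicate C of +P was above every other library. The log2 interaction was -1.22 (SE 1.48, unadjusted p = 0.431) for EpF3H and -2.55 (SE 1.49, unadjusted p = 0.117) for EpF3'H1, and with 90d +P replicate C left out it was 0.78 and 0.79. EpF3'5'H1 (Ebr01G061940, chromosome 1, 536407183 to 536409054) had 499, 348 and 238 CPM in 30d -P, 2.77, 201 and 57.4 in 30d +P, 25.9, 2.56 and 83.4 in 90d -P and 0.97, 0.645 and 446 in 90d +P. Its log2 interaction of -4.06 (unadjusted p = 0.188) was 3.47 without that library. EpFLS3 (Ebr04G051790, chromosome 4, 405527936 to 405530814), a flavonol synthase, had 818, 709 and 504 CPM in 30d -P, 336, 457 and 469 in 30d +P, 662, 132 and 466 in 90d -P and 362, 59.9 and 798 in 90d +P and a log2 interaction of -0.64 (SE 1.06, unadjusted p = 0.561), and 0.31 without that library. The Ep4CL12 gene (Ebr04G003020), a 4-coumarate CoA ligase, had -1.47 with and 0.49 without it. EpPAL4 (Ebr06G007280), a phenylalanine ammonia-lyase at the entry of the phenylpropanoid pathway, had 2.73, 77.1 and 71.3 CPM in 30d -P, 10.3, 7.87 and 8.68 in 30d +P, 13.4, 6.39 and 2.16 in 90d -P and 11, 0.376 and 25.5 in 90d +P. Replicates B and C of 30d -P stood above all other libraries, and its log2 interaction was -3.24 (SE 1.77, unadjusted p = 0.096). EpUGT3_A (Ebr01G027820), a glycosyltransferase, was higher in -P without overlap at both times, with log2 ratios of 1.41 and 0.77 and a log2 interaction of -0.63 (SE 0.78, unadjusted p = 0.433).

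**Figure D3:**
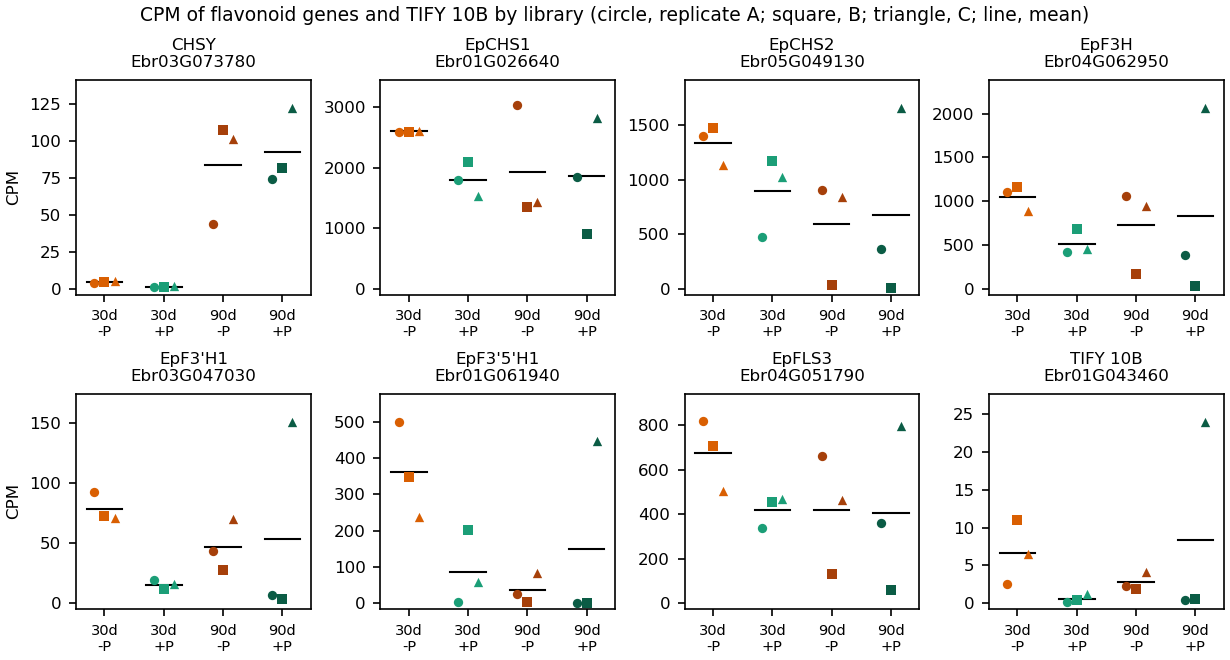
CPM of 7 flavonoid genes and TIFY 10B in the 12 libraries, by group on the horizontal axis, with 1 symbol per replicate letter and a line at the group mean. Replicate C of 90d +P (triangle) is the highest library of the 90 d groups in 7 of the 8 panels, EpCHS1 being the exception, and in the CHSY panel the 30 d libraries all lie below 6 CPM.

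The jasmonate genes also depended on 90d +P replicate C. Of 36 genes for jasmonate synthesis, breakdown and TIFY repressors, 27 had a log2 interaction below 0. The 2 nominal genes were both on the lower side (5.56% of the 36, beside 2.52% of all genes tested). The class median was -0.36, and without 90d +P replicate C it was 0.07. TIFY 10B (Ebr01G043460, chromosome 1, 381614959 to 381615564), a repressor of jasmonate responses in Arabidopsis, had 2.58, 11 and 6.5 CPM in 30d -P, 0.132, 0.375 and 1.27 in 30d +P, 2.31, 1.83 and 4.19 in 90d -P and 0.485, 0.537 and 24 in 90d +P. At 30 d -P was above +P without overlap, at 90 d 2 libraries of +P were the lowest and the third the highest. Its log2 interaction was -5.06 (SE 1.96, unadjusted p = 0.0263), with a leave-one-out range of -6.28 to -1.05. Of 3 genes annotated as the jasmonate-induced oxygenase JOX2, which inactivates jasmonate, 2 were also far highest in 90d +P replicate C, at 31.9 CPM for Ebr01G067360 and 44.1 CPM for Ebr01G067610, where the other 11 libraries had at most 12.1 CPM. Both were chosen after their values were seen.

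Of the transcription factor families, AP2/ERF factors, which act in ethylene and stress responses, were below 0 in 52 of 71 genes, with a median log2 interaction of -0.38 and leave-one-out medians of -0.57 to -0.20. On log2(FPKM + 1) it was -0.21. Their median log2 ratio of -P to +P was 0.26 at 30 d and -0.03 at 90 d. Of the 71, 2 were nominal (2.82%, near the 2.52% of all genes tested), both on the lower side. ERF022 (Ebr04G053580, chromosome 4, 420974904 to 420975419) had 1.08, 3.79 and 1.98 CPM in 30d -P, 0.791, 0.225 and 0.534 in 30d +P, 0.547, 0.609 and 0.925 in 90d -P and 0.788, 1.18 and 1.08 in 90d +P. All libraries of 30d -P were above those of 30d +P, the 90 d groups overlapped, and the log2 interaction was -2.67 (SE 0.91, unadjusted p = 0.0146). For ERF5 (Ebr04G011530) the values were 354, 290.0 and 93.8 CPM in 30d -P, 60.7, 67.5 and 88.2 in 30d +P, 36.4, 42.2 and 51.6 in 90d -P and 35.6, 39.8 and 11.7 in 90d +P, again with -P above +P at 30 d alone, and a log2 interaction of -1.19 (SE 0.71, unadjusted p = 0.124). The 13 LOB genes tested had a median of -1.03, which was -0.24 without 30d -P replicate C and -0.36 on log2(FPKM + 1), and 0 of them was nominal. The bHLH family had 3 nominal genes on the higher and 5 on the lower side among 84 (9.52%), and MYB 1 and 0 among 120 (0.833%). The share over all genes tested was 2.52%.

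The WRKY, NAC and GRAS families each had 1 nominal gene, on the lower side, with -P above +P at 30 d. This was 2.94% of 34, 2.44% of 41 and 4.35% of 23 genes, beside 2.52% of all genes tested. Other families had nominal genes on the higher side alone. These were C2H2 (2 of 53, 3.77%), MYB (1 of 120, 0.833%), mTERF (1 of 56, 1.79%) and HSF factors (1 of 13, 7.69%). Counts of 1 or 2 genes give no direction of a family. WRKY24 (Ebr01G004220) had 66.3, 149 and 30.2 CPM in 30d -P, 13.1, 11.3 and 27.6 in 30d +P, 22.4, 47 and 34.5 in 90d -P and 25.7, 34.5 and 20.3 in 90d +P. NAC48 (Ebr04G026100) had 40.04, 53.1 and 22.3 CPM in 30d -P, 10.4, 11.5 and 15.5 in 30d +P, 13.2, 37.6 and 17 in 90d -P and 19, 21.4 and 18.8 in 90d +P. CIGR1 (Ebr03G023150), a GRAS protein induced by chitin and gibberellin in rice, had 77.1, 169.8 and 52.1 CPM in 30d -P, 29.6, 24.7 and 38.9 in 30d +P, 37, 39.3 and 58.5 in 90d -P and 28.6, 30.02 and 42.4 in 90d +P. In all 3 genes -P was above +P without overlap at 30 d and the groups overlapped at 90 d, and the log2 interactions were -1.87 (unadjusted p = 0.0358), -1.43 (unadjusted p = 0.0305) and -1.27 (unadjusted p = 0.0465). The protein phosphatase 2C gene P2C63 (Ebr04G070500), from the class of abscisic acid and ethylene genes, had 55.2, 97.8 and 33.9 CPM in 30d -P, 24.1, 24.1 and 22.8 in 30d +P, 17.2, 18.7 and 16.3 in 90d -P and 17, 19 and 21.9 in 90d +P. It shared the pattern, with a log2 interaction of -1.54 (SE 0.44, unadjusted p = 0.00503). The clock gene APRR5 (Ebr01G044190), a pseudo-response regulator, had 5.24, 9.28 and 17.3 CPM in 30d -P, 3.1, 4.87 and 4.61 in 30d +P, 15.3, 17.9 and 19.98 in 90d -P and 14.3, 57.8 and 53.4 in 90d +P. It had its lowest libraries in 30d +P and its highest, replicates B and C, in 90d +P, and the log2 interaction was -2.58 (SE 0.74, unadjusted p = 0.00575).

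Of the cell wall genes, 58 cellulose synthase and cellulose synthase-like genes had 4 nominal members on the higher and 1 on the lower side. This was 8.62%, beside 2.52% of all genes tested. The counts were 3 and 0 among 74 pectin-modifying enzymes (4.05%) and 2 and 3 among 117 laccases, dirigent proteins and peroxidases (4.27%). Xyloglucan endotransglucosylases and expansins had 1 and 0 among 42 (2.38%). The medians of these classes were 0.02, 0.01, 0.09 and -0.10, and each had either sign depending on which library was left out. CSLC12 (Ebr03G054920, chromosome 3, 449402120 to 449405431), which makes the glucan backbone of xyloglucan, had 26.1, 29.9 and 3.44 CPM in 30d -P, 0.264, 0.525 and 0.668 in 30d +P, 0.243, 0.426 and 1.48 in 90d -P and 1.52, 0.376 and 0.54 in 90d +P. Only the 30d -P libraries were above 2 CPM, and the log2 interaction was -5.50 (SE 1.32, unadjusted p = 0.00176). CSLD2 (Ebr04G003120) had 73.4, 105 and 46.3 CPM in 30d -P, 16.4, 18.4 and 21.7 in 30d +P, 33.6, 16.1 and 20.4 in 90d -P and 13.5, 16.2 and 22.6 in 90d +P, with -P above +P at 30 d without overlap and a log2 interaction of -1.57 (SE 0.49, unadjusted p = 0.00911). A polygalacturonase gene (Ebr04G016160), whose product cuts pectin, had 4.88, 3.59 and 5.04 CPM in 30d -P, 3.69, 2.92 and 8.21 in 30d +P, 4.68, 4.5 and 3.02 in 90d -P and 1.03, 0.752 and 1.46 in 90d +P. It was lowest in 90d +P, and the log2 interaction was 2.04 (SE 0.64, unadjusted p = 0.00955). Expansin EXPA8 (Ebr01G040380), which loosens walls, had 0.144, 0 and 0.128 CPM in 30d -P, 21.7, 136 and 128 in 30d +P, 1.28, 1.77 and 0 in 90d -P and 0.728, 8.7 and 0.162 in 90d +P. It was high in 30d +P alone, and DESeq2 called it with a log2 interaction of 8.35 and an adjusted p of 0.0402. Peroxidase PER52 (Ebr06G041950, chromosome 6, 332998219 to 333002836) had 0, 0 and 0 CPM in 30d -P, 7.45, 0.075 and 0.801 in 30d +P, 201, 142 and 149 in 90d -P and 121, 73.5 and 57.2 in 90d +P. There was no count in the 3 libraries of 30d -P. Against the floor of 3 counts per library this is at least 13.8-fold lower than in 30d +P, or 2.18-fold without its replicate A, and at 90 d -P was above +P without overlap. Replicate A of 30d +P, at 7.45 CPM, held most of the counts of that group. The xylem list was lower at 90 d than at 30 d in both treatments, and its part in these values was not tested.

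In 43 genes (0.177% of those tested) the libraries of -P and +P did not overlap at either time and the order was reversed. Of these, -P was above +P at 30 d and below at 90 d in 22 (0.0905%), and the reverse held in 21 (0.0864%). Libraries placed in random order would on average give such a reversal in a larger share of genes. None of these genes is therefore shown to have a reversed effect. Among the 43, 31 were nominal. They include 7 named genes with -P below at 30 d and above at 90 d, DTX40, MURF, IPPK, PAP2, PER52, CB24 and RGA2, and 2 with the reverse order, CHX19 and SKI3.

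DTX40 (Ebr06G034070, chromosome 6, 268895765 to 268903535), a MATE efflux carrier, had 70.3, 60.1 and 44.9 CPM in 30d -P, 94.2, 124 and 107 in 30d +P, 135, 112 and 126 in 90d -P and 107, 69.7 and 96.2 in 90d +P. Its log2 ratio of -P to +P was -0.89 at 30 d and 0.45 at 90 d, with a log2 interaction of 1.34 (SE 0.30, unadjusted p = 0.00115). IPPK (Ebr06G042510, chromosome 6, 338264885 to 338342348) adds the last phosphate of inositol hexakisphosphate, the storage form of phosphate in plants and a precursor of the compounds that SPX domains bind. It had 8.97, 10.5 and 11.5 CPM in 30d -P, 14.4, 14.2 and 14.9 in 30d +P, 23.8, 24.4 and 19.1 in 90d -P and 18.2, 15.8 and 15.7 in 90d +P. The difference between the treatments was small at each time, with log2 ratios of -0.49 and 0.44, the replicates were close, and the log2 interaction was 0.93 (SE 0.24, unadjusted p = 0.00332). The disease resistance gene RGA2 (Ebr02G004800) had 1.22, 1.11 and 1.59 CPM in 30d -P, 3.89, 2.4 and 2.0 in 30d +P, 3.16, 1.83 and 1.36 in 90d -P and 0.606, 0.698 and 0.972 in 90d +P and a log2 interaction of 2.54 (SE 0.70, unadjusted p = 0.00425). In the reverse order, SKI3 (Ebr04G028010, chromosome 4, 219090191 to 219204805), part of the complex that feeds RNA to the exosome for decay, had 26, 24.8 and 23.4 CPM in 30d -P, 13.4, 14.3 and 21.6 in 30d +P, 15.3, 18.2 and 17.1 in 90d -P and 27, 40.2 and 22.6 in 90d +P and a log2 interaction of -1.42 (SE 0.35, unadjusted p = 0.00208). The cation/proton antiporter CHX19 (Ebr02G000330, chromosome 2, 1816695 to 1821076) had 6.89, 2.42 and 0.255 CPM in 30d -P, 0.0659, 0.075 and 0.134 in 30d +P, 0.122, 0.304 and 0 in 90d -P and 0.424, 1.45 and 5.02 in 90d +P. Its libraries of 30d +P and 90d -P had at most 0.304 CPM, and DESeq2 called it with an adjusted p of 0.00402 and the likelihood ratio test called it as well.

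Further genes on the higher side by smallest p were of several patterns. ZIP5 (Ebr03G042550, chromosome 3, 346057858 to 346065455), a zinc transporter, had 109, 88.4 and 74.8 CPM in 30d -P, 95, 116 and 131 in 30d +P, 91.5, 93.8 and 118 in 90d -P and 57.2, 62.5 and 54.3 in 90d +P. At 30 d the groups overlapped and at 90 d -P was above +P, with a log2 interaction of 1.13 (SE 0.27, unadjusted p = 0.00151). FN3KR (Ebr04G015580), which repairs glycated proteins, had 15.5, 19.1 and 28.7 CPM in 30d -P, 22.5, 43.6 and 22.5 in 30d +P, 39.7, 33.5 and 30.7 in 90d -P and 17.1, 11.5 and 16.6 in 90d +P and a log2 interaction of 1.68 (SE 0.45, unadjusted p = 0.00341) on the same pattern. OTU3 (Ebr04G066510), a deubiquitinating enzyme, had 5.6, 5.62 and 6.06 CPM in 30d -P, 13.6, 10.4 and 9.82 in 30d +P, 15.4, 12.7 and 9.13 in 90d -P and 9.94, 7.41 and 5.35 in 90d +P. It was below +P at 30 d without overlap, with a log2 interaction of 1.68 (SE 0.41, unadjusted p = 0.00186). The sugar transporter MST6 (Ebr06G048220) had 0.359, 0.784 and 0.446 CPM in 30d -P, 0.923, 17 and 14.8 in 30d +P, 0.608, 1.89 and 0.925 in 90d -P and 0.667, 1.24 and 0.648 in 90d +P. Here replicates B and C of 30d +P stood alone above 2 CPM, and the log2 interaction was 4.76 (SE 1.26, unadjusted p = 0.00344). The receptor-like protein EIX1 (Ebr05G001890) was also highest in 30d +P, while an S-receptor kinase gene (Ebr03G022400) and the aspartic proteinase APA1 (Ebr01G016590) were near or at 0 in 30d -P and above 0.2 CPM in all other libraries.

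On the lower side, the 5 genes with the smallest p of all tested had their 3 lowest libraries in 90d -P. Genes from the transcript assembly are named here by the number that the authors gave them. The smallest p belonged to assembled gene 6221, which has no Swiss-Prot match (chromosome 4), and which had 16.5, 4.64 and 3.89 CPM in 30d -P, 12.8, 22.3 and 26.4 in 30d +P, 0, 0.183 and 0.0617 in 90d -P and 46.9, 39.3 and 17.9 in 90d +P. The L-cysteine desulfhydrase gene, assembled gene 4677 (chromosome 3, 381294036 to 381303404), had 26.1, 8.43 and 3.38 CPM in 30d -P, 37.2, 73.3 and 84.5 in 30d +P, 0, 0 and 0 in 90d -P and 40.4, 118 and 21.5 in 90d +P. With no count in 90d -P, it was against the floor of 3 counts per library at least 328-fold lower than in 90d +P, or 169-fold without 90d +P replicate B, and at 30 d -P was below +P as well without overlap. RBP1C (Ebr01G068540, chromosome 1, 588897781 to 588907348), a Ran-binding protein of nuclear transport, had 32.4, 10.8 and 5.87 CPM in 30d -P, 32.6, 55.2 and 51.8 in 30d +P, 1.7, 1.1 and 0.987 in 90d -P and 32.6, 50.9 and 35.5 in 90d +P. Its log2 ratio was -1.51 at 30 d and -4.97 at 90 d, and the log2 interaction was -3.46 (SE 0.77, unadjusted p = 0.00109), so that -P was below +P at both times and by more at 90 d. PSF3 (Ebr04G057090, chromosome 4, 446542450 to 446577223), named after a subunit of the GINS complex of DNA replication, had 25.3, 18.2 and 11.8 CPM in 30d -P, 10.3, 19.9 and 9.48 in 30d +P, 0.912, 0.73 and 0.74 in 90d -P and 2.49, 2.52 and 3.78 in 90d +P. All libraries at 90 d were below those at 30 d, -P was below +P at 90 d alone, and the log2 interaction was -2.35 (SE 0.54, unadjusted p = 0.00125). A B3 domain gene, assembled gene 8258, had 12.8, 2.88 and 1.72 CPM in 30d -P, 9.49, 5.47 and 5.81 in 30d +P, 0.122, 0 and 0.0617 in 90d -P and 2.73, 7.52 and 2.11 in 90d +P, again with 90d -P near 0.

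**Figure D4:**
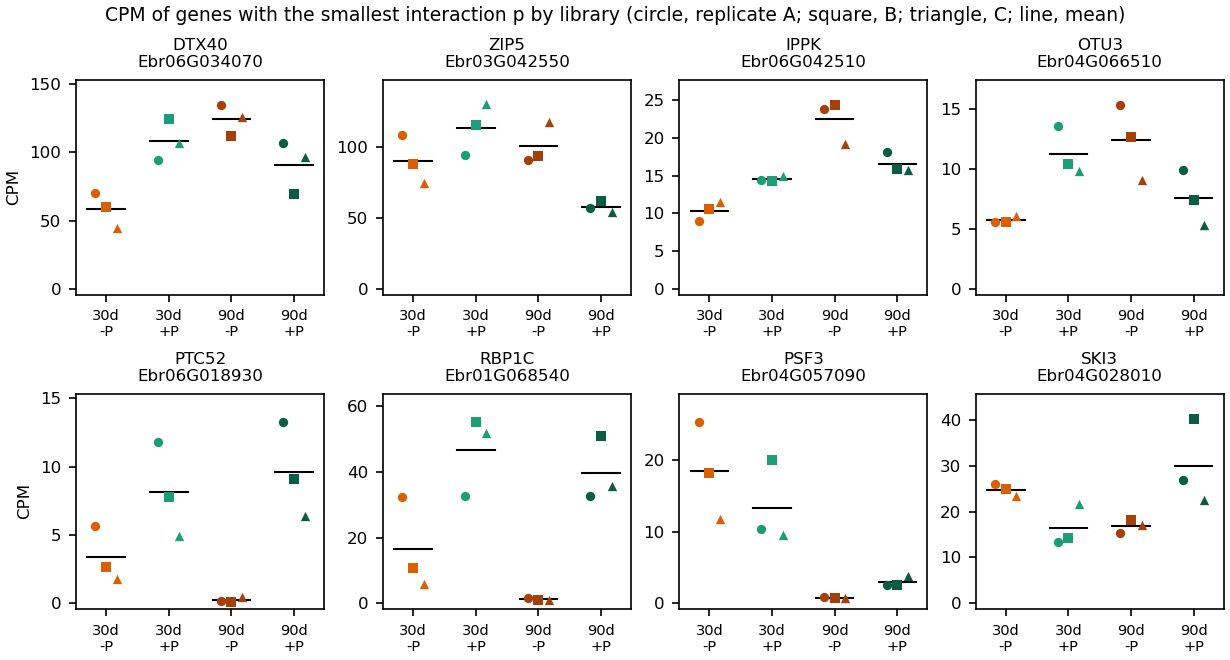
CPM of 8 genes among those with the smallest interaction p in the 12 libraries, by group on the horizontal axis, with 1 symbol per replicate letter and a line at the group mean. The upper 4 panels have positive and the lower 4 negative log2 interactions, and PTC52 and RBP1C are near 0 in the 3 libraries of 90d -P.

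The 6 calls of the likelihood ratio test were chosen after their values were seen. They are PER52 on the higher side and assembled genes 6221, 4677 and 7329, Ebr03G053300 and CHX19 on the lower side. Of these, assembled gene 7329 had 26.8, 8.37 and 6.5 CPM in 30d -P, 46, 16.5 and 15.5 in 30d +P, 0.304, 0 and 0.185 in 90d -P and 18.2, 65.1 and 18 in 90d +P, and Ebr03G053300 had 4.45, 0.588 and 1.59 CPM in 30d -P, 1.71, 1.8 and 2.27 in 30d +P, 0, 0 and 0 in 90d -P and 0.364, 2.2 and 5.02 in 90d +P. Neither has a Swiss-Prot match, and both were at or near 0 in 90d -P and lower there than in every library of the other groups. Of the 34 calls of DESeq2, 21 were assembled genes and 25 had no count in all libraries of a group. edgeR tested 32 of the 34, and 18 had an unadjusted p under 0.05 there.

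The remaining named genes on the lower side by smallest p differed between the treatments at 30 d. PLIP2 (Ebr03G058760), a chloroplast phospholipase that frees fatty acids for jasmonate synthesis in Arabidopsis, had 12.3, 58.5 and 12.2 CPM in 30d -P, 0.791, 3.15 and 3.81 in 30d +P, 2.19, 3.04 and 1.42 in 90d -P and 3.27, 2.04 and 4.59 in 90d +P. Its log2 interaction was -3.99 (SE 1.04, unadjusted p = 0.00308). USP (Ebr01G054290), a UDP-sugar pyrophosphorylase, had 40.6, 36.8 and 42.3 CPM in 30d -P, 19.6, 24.1 and 28.9 in 30d +P, 17.2, 16.5 and 15 in 90d -P and 16.7, 20.6 and 21.1 in 90d +P, and MLH3 (Ebr04G056070), a mismatch repair protein of meiosis, had 39.2, 24.7 and 24.4 CPM in 30d -P, 11.3, 12.4 and 14.8 in 30d +P, 22.2, 28.9 and 22.3 in 90d -P and 20.8, 30.7 and 41.8 in 90d +P. For these 3 genes -P was above +P without overlap at 30 d and the groups overlapped at 90 d. The log2 interactions were -0.98 (SE 0.25, unadjusted p = 0.00264) for USP and -1.54 (SE 0.40, unadjusted p = 0.00282) for MLH3. Cell cycle, histone and replication genes had 1 nominal member on the higher and 6 on the lower side among 229, with a median of -0.04. This was 3.06% of them, near the 2.52% of all genes tested. The summed CPM of the dividing cell list was between 1250.2 and 1621 in the 12 libraries.

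Over the 46 functional classes, the median log2 interaction was largest for PHO1 exporters among the 45 with at least 5 genes tested and smallest for LOB factors. UDP-glycosyltransferases had 5 nominal genes on the higher and 3 on the lower side (5.23%, beside 2.52% of all genes tested). The median of all 153 was 0.36, with 100 above 0. That median was 0.11 without 30d +P replicate A, 0.16 without 90d -P replicate C and 0.11 in limma-voom. Nitrate, ammonium, sulfate and potassium transporters had 5 nominal genes on the higher and 1 on the lower side among 130 (4.62%). Cytochrome P450 genes had 5 and 4 among 134 (6.72%), beside 2.52% of all genes tested. MADS factors had a median of 0.53, which was 0.06 without 30d +P replicate A, -0.08 in limma-voom and -0.09 on log2(FPKM + 1). Cytosolic ribosomal proteins (305 genes, median -0.03) and heat shock proteins and chaperones (185 genes, median 0.003) lay close to the median of all genes. edgeR's quasi-likelihood test called no member of any class, and these medians carry no test.

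**Figure D5:**
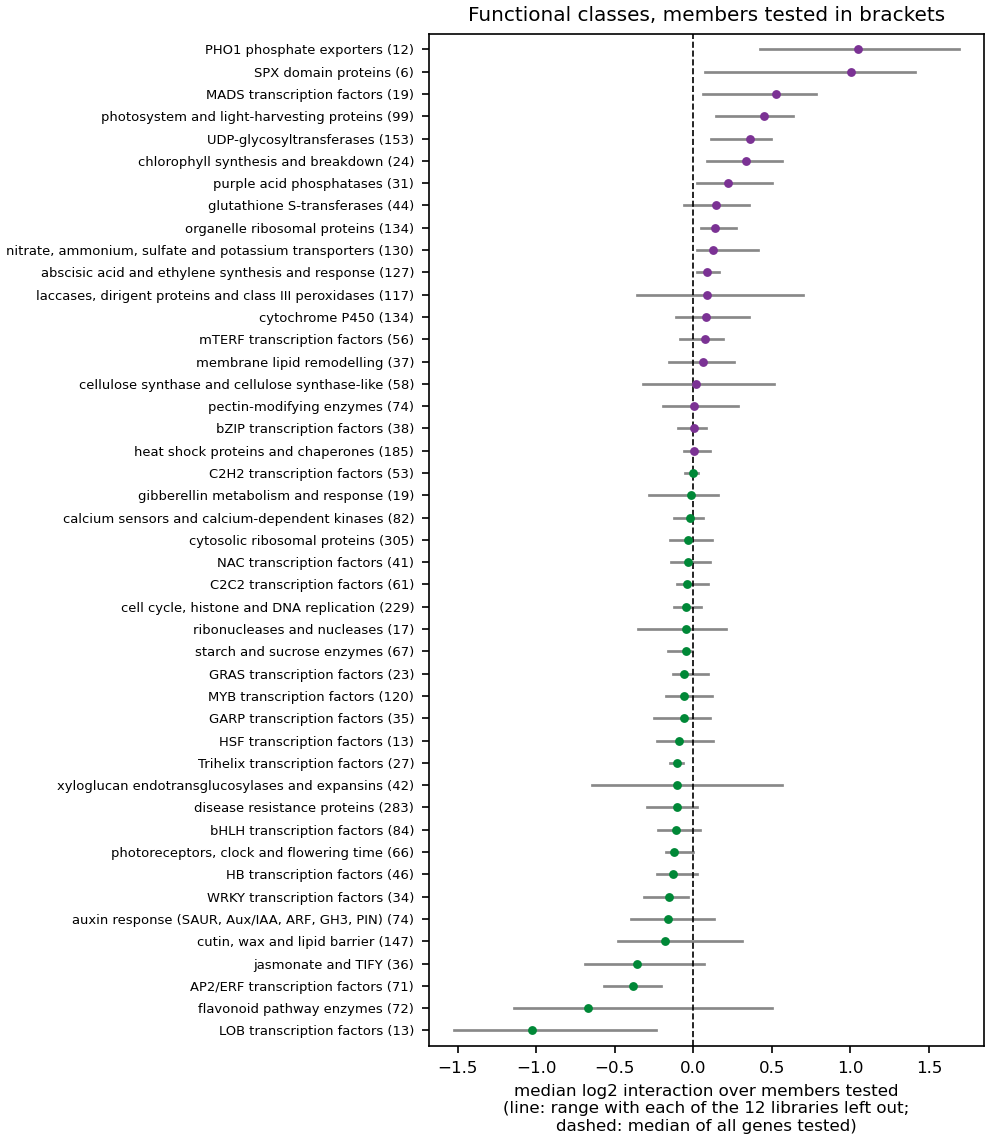
Median log2 interaction (horizontal axis) of the tested members of each functional class with at least 5 of them, with the number tested in brackets, lines for the range over leaving out each of the 12 libraries and a dashed line at the median of all genes tested. PHO1 exporters are at 1.05 and LOB factors at -1.03, and the line of the flavonoid enzymes runs from -1.14 to 0.50.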

How the data were processed

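RNA-seq counts per gene were made by the authors with HISAT2 2.0.5, StringTie 1.3.3b and featureCounts 1.5.0-p3, as their processing notes list them. Strand, reads shared between copies and the genome build are not given in the sources used here. The FPKM values were also deposited by the authors, and a check showed them to be counts per kilobase over a library size scaled by DESeq2 size factors. They served as an alternative only. edgeR 4.0.16 in R 4.3.3 fitted a quasi-likelihood model (TMM factors, filterByExpr over the 4 groups, robust option) to the counts of all 12 libraries, and the interaction was a contrast of the 4 group means. Alternatives used limma 3.58.1, DESeq2 1.42.0, other filters and leaving out each library. The quasi-likelihood, likelihood ratio, DESeq2 and limma-voom fits were tested on simulated data. Named genes were called genes, then the 12 of smallest p in each direction with a description and a group mean of 1 CPM or more, the smallest p of each class, and the genes with RT-qPCR primers. The members, classes and lists were chosen with earlier results of these data known. Gene names are those of the closest Swiss-Prot protein, often of another species.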

Additional observations from a re-analysis of the deposited data

How the results depend on the processing

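The interaction had 0 calls in each direction under edgeR with other size factors, other filters on low counts, without the robust option and without each library, in limma-voom and on log2(FPKM + 1). DESeq2 called 11 higher and 23 lower, and the likelihood ratio test 1 and 5. Without adjustment of p the counts were 316 and 297. Replicate letters gave no sign of pairing the libraries. The correlation of deviations between groups was -0.233 to 0.212 for the same letter and -0.285 to 0.279 for different letters. With 3 libraries per group, such correlations cannot exclude a pairing. With the letter as a replicate block there were again 0 and 0 calls, and 246 and 234 nominal genes. With the block nested in time the nominal genes were 183 and 177. Of 1737 values of the 79 named genes under these alternatives, 1716 kept their direction and side of the threshold, 11 passed it and 10 turned their sign. Apart from the genes with RT-qPCR primers, the named genes were taken for a small p in these same libraries. Keeping their sign was therefore largely set in advance. None was called in the main fit, so keeping the side of the threshold means staying uncalled. All 7 genes that turned did so without 90d +P replicate C. Leaving out 1 library at a time gave -1.36 to 1.07 for EpCHS2 (Ebr05G049130), -1.79 to 0.78 for EpF3H (Ebr04G062950), -1.17 to 0.31 for EpFLS3 (Ebr04G051790), -2.00 to 0.49 for Ep4CL12 (Ebr04G003020), -3.09 to 1.09 for EpCHS5 (Ebr03G073940), -3.12 to 0.79 for EpF3'H1 (Ebr03G047030) and -5.58 to 3.47 for EpF3'5'H1 (Ebr01G061940). EpCHS2 was also positive with the block nested in time (0.29) and on log2(FPKM + 1) (0.15), and EpCHS5 with the block nested in time (0.037). The class medians under other settings were computed after the data were seen. The median of the flavonoid class was 0.02 with the block nested in time and -0.40 with the block alone. In simulated data, the quasi-likelihood test recovered 58 of 100 16-fold and 10 of 100 4-fold interactions. It thus missed large interactions as well as small ones. DESeq2 recovered 74 and 40, and the likelihood ratio test 75 and 36. These 2 made more false calls, 105 and 79, beside 8 for the quasi-likelihood test. limma-voom recovered 41 and 6 and made 2 false calls.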
